A study of Homo sapiens with 6 samples.

Results

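FAS and the TRAIL receptors are cell-surface receptors that can start apoptosis when their ligands bind, and 10 genes of this route were described in a human breast cancer line and its paclitaxel-exposed derivative. The genes, taken by name, were the TRAIL ligand TNFSF10, the receptors FAS, TNFRSF10A, TNFRSF10B, TNFRSF10C and TNFRSF10D, the adaptor FADD, the initiator caspases CASP8 and CASP10, and the inhibitor CFLAR. They are 10 of 28395 Entrez genes in the count table, and 9 of them, all but TNFRSF10C, were among the 13950 genes with enough counts to test. The list was chosen by the measured difference of FAS between the lines, so differences between the lines are described for the 10 genes without a p-value.

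In death receptor signalling, a ligand of the tumour necrosis factor family clusters its receptor, the cytoplasmic death domain of the receptor recruits FADD, and FADD recruits procaspase-8 or procaspase-10, which cleave and activate each other. CFLAR, known as c-FLIP, resembles these caspases but lacks their protease activity and takes their place in the complex. TNFRSF10A (DR4) and TNFRSF10B (DR5) carry a death domain, whereas TNFRSF10C lacks one and TNFRSF10D has a truncated one, so that both are called decoy receptors. Cytotoxic T cells and NK cells carry FAS ligand and TRAIL and can kill tumour cells through these receptors.

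RNA was sequenced from 3 control libraries of MDA-MB-468, an established triple-negative breast cancer line, and from 3 libraries of MDA-MB-468-PR, a derivative of it made by 2 months of exposure to paclitaxel (3 to 4.5 nM), which stabilises microtubules. Both lines grew in high-glucose DMEM with 10% heat-inactivated serum, and the labels give every sample as untreated. The resistant libraries came from this 1 derivative, so an effect of paclitaxel and other differences between 2 separately kept cultures cannot be told apart. Control replicate 1 and resistant replicate 1 carry a 2020 batch date and the other 4 libraries a 2021 date. Total counts ranged from 37889818 to 93680129 per library, and a gene without reads could lie at up to 3 counts, which is 0.0312 to 0.0808 CPM (counts scaled to library size). Messenger RNA was captured with exome probes, and counts per gene do not separate membrane-bound from soluble FAS or the long from the short form of CFLAR. All 7 epithelial markers were tested, summing to 7284 to 9570 CPM (control) and 9481 to 12408 CPM (resistant). EGFR alone of the 7 was called, rising from 5215, 2908 and 3200 CPM to 7372, 5102 and 5419 CPM in replicates 1 to 3 (edgeR adjusted p = 0.0199). The leukocyte marker PTPRC was at no more than 0.09 CPM, and NKG7 and MS4A1 had no count. The 7 leukocyte markers summed to 8.65 to 21 CPM (control) and 12.1 to 18.9 CPM (resistant), nearly all of it CD14 and CD68. In the fibroblast and endothelial lists 1 of 6 and 3 of 4 markers were tested, and their sums lay between 22.5 and 30.5 CPM, nearly all COL1A1, and between 2.07 and 3.74 CPM.

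The sequences before the start sites of FAS and TNFSF10 are shown because these genes had the largest differences between batches of the 10, and FAS also between the lines. Each is a 300-base window across the start site, written 5' to 3', from RefSeq on GRCh38.p14, with matches to any of 8 searched motifs in capitals. FAS lies on the plus strand at chr10:88990548-88990847, the first of 3 start sites listed for it, and TNFSF10 on the minus strand at chr3:172523381-172523680.
FAS: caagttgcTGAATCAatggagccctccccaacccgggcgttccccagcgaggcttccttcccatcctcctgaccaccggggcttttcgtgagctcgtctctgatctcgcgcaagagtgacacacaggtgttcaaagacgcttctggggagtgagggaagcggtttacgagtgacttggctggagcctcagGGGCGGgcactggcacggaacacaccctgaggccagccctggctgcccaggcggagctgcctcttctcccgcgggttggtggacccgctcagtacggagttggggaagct
TNFSF10: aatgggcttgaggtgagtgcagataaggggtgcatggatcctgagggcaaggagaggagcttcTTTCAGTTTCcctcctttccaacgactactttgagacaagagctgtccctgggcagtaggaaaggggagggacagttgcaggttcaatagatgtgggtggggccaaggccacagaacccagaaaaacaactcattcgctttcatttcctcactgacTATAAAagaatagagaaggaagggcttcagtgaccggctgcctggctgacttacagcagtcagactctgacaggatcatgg
Both strands were searched for the GC box GGGCGG, AP-1 TGANTCA, an NF-kappaB motif, the STAT motif TTCNNNGAA, an interferon-response motif (ISRE), CRE TGACGTCA, CCAAT and TATAAA. The FAS window held 1 AP-1 match and 1 GC box, which occur in 7.71% and 45% of 35116 windows of this length. The TNFSF10 window held 1 interferon motif and 1 TATAAA, found in 3.57% and 11.5% of windows. RefSeq windows were matched for 5 of the 10 genes. A match describes letters only.

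**Figure D1:**
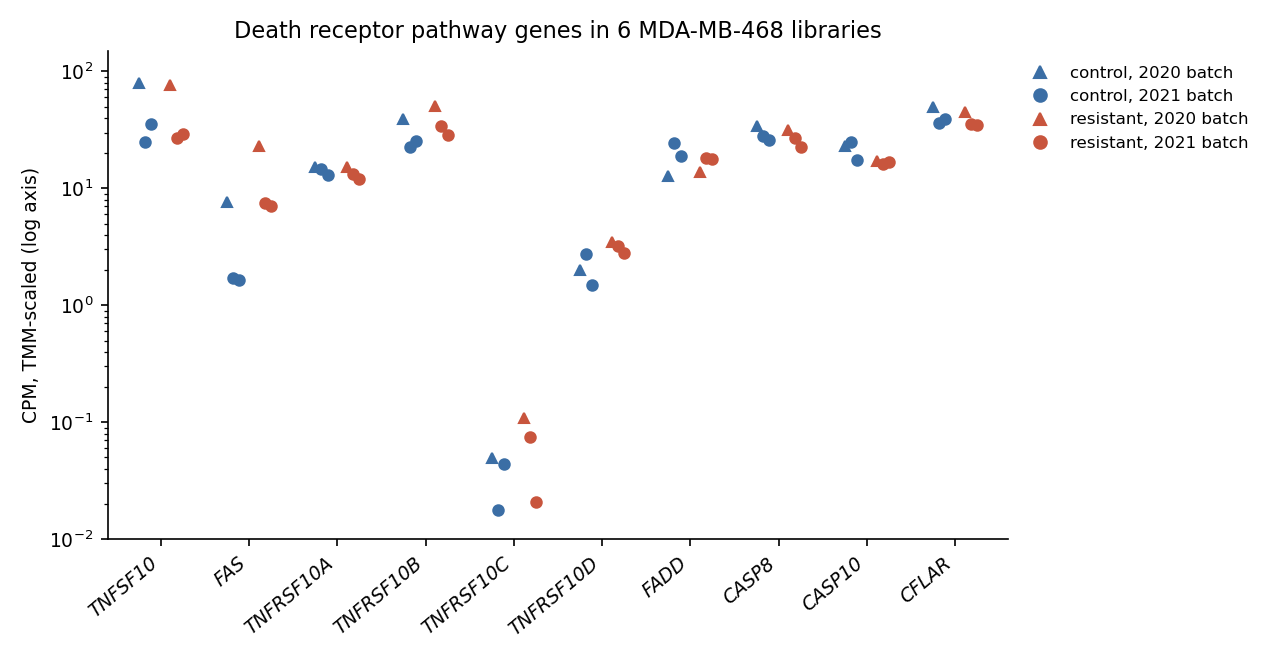
CPM, scaled by TMM and on a log axis, of the 10 genes in each library, with control in blue, resistant in red, triangles for 2020 and circles for 2021. FAS is higher in the resistant library or libraries of each batch, and TNFSF10, FAS and TNFRSF10B are higher in the 2020 libraries.

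FAS, the receptor of FAS ligand (chromosome 10, 88964050 to 89017059, GRCh38), was the gene of the 10 that differed most between the lines. It stood at 7.58, 1.7 and 1.65 CPM in control replicates 1 to 3 and at 22.9, 7.47 and 7 CPM in resistant replicates 1 to 3, from 305, 95 and 112 counts and from 850, 498 and 674 counts. Batch by batch, resistant libraries were above controls, but the control library of 2020 lay above both resistant libraries of 2021, so the groups overlapped. The group levels were 3.64 ± 3.41 and 12.5 ± 9.04 CPM (SD, n = 3 per group). With the batch as a term the fitted log2 difference was 1.92 ± 0.16 (SE), or 3.8-fold. It was 1.59 in 2020 and 2.09 in 2021, and between 1.78 and 2.11 over all 15 alternative settings. In bulk RNA, more cells that express a gene and more of its RNA per cell cannot be told apart.

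Of the 9 testable genes, FAS alone passed the threshold between the lines (edgeR quasi-likelihood test, Benjamini-Hochberg adjusted p under 0.05 over all genes), beside 11.7% of all tested genes called in either direction and 6.23% called higher. As the list was drawn up with this difference known, the count shows nothing further. The groups did not overlap for 2 of the 9, TNFRSF10D above and CASP10 below, beside 20.9% of all tested genes. The median log2 difference of the 9 genes was -0.09, and that of all tested genes -0.00391.

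TNFSF10, which encodes TRAIL (chromosome 3, 172505508 to 172523430), was at 79.8, 25.0 and 35.4 CPM in control replicates 1 to 3 and at 76.8, 27 and 29 CPM in resistant replicates 1 to 3. The 2 libraries of 2020 were the high ones in both lines, and the groups overlapped throughout. The fitted log2 difference between the lines was -0.09 ± 0.13, with -0.05 in 2020 and -0.09 in 2021, and its sign depended on the library left out (-0.22 to 0.06).

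The 4 TRAIL receptor genes lie side by side on chromosome 8, between 23020133 and 23225102. TNFRSF10B, the death receptor DR5, was at 39.4, 22.6 and 25.6 CPM in the controls and 50.8, 34 and 28.6 CPM in the resistant replicates. In each batch the resistant libraries were above the control libraries, by 0.37 (2020) and 0.38 (2021) on the log2 scale and by a fitted 0.37 ± 0.11, or 1.3-fold. TNFRSF10A, the death receptor DR4, was flat by comparison, at 15.2, 14.6 and 13.1 CPM in the controls and 15.3, 13.3 and 12 CPM in the resistant replicates (log2 difference -0.08 ± 0.12). TNFRSF10D, the decoy with a truncated death domain, was far lower, at 1.99, 2.77 and 1.49 CPM in the controls and 3.47, 3.21 and 2.81 CPM in the resistant replicates. All 3 resistant libraries were above all 3 controls, by a fitted log2 difference of 0.6 ± 0.26, which was 0.39 without control replicate 3 and 0.92 without control replicate 2.

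TNFRSF10C, the decoy without a death domain, was at the limit of detection. It had 2, 1 and 3 counts in control and 4, 5 and 2 counts in resistant replicates 1 to 3, which is 0.0179 to 0.108 CPM over the 6 libraries. The resistant to control ratio of the summed counts was 1.5, with a 95% exact interval of 0.509 to 4.95 that covers counting error only, so no difference was detectable at this depth.

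Per kilobase of coding sequence, TNFRSF10B supplied 64 ± 6.62% of the summed level of the 4 TRAIL receptors in control and 69.1 ± 3.7% in resistant libraries (SD, n = 3 per group). TNFRSF10A supplied 30.4 ± 4.69% and 23.9 ± 2.82%, TNFRSF10D 5.44 ± 2.21% and 6.81 ± 0.956%, and TNFRSF10C 0.139 ± 0.0574% and 0.2 ± 0.102%. The TNFRSF10A share was 25.5%, 34.8% and 31% in control and 20.7%, 24.9% and 26.1% in resistant replicates 1 to 3. It was lower in the resistant libraries of each batch, and the groups overlapped. Probe capture can differ between genes and was not measured, and the coding length merges the annotated forms of a gene. Shares, ratios and orders of different genes, here and below, hold only as far as capture was alike.

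FADD, the adaptor that links the receptors to the caspases (chromosome 11, 70203296 to 70207390), was at 12.7, 24.6 and 19 CPM in the controls and 13.9, 18 and 17.9 CPM in the resistant replicates. The resistant library was above the control in 2020 and both were below their controls in 2021, with log2 differences of 0.13 and -0.27 around a fitted -0.15 ± 0.14, which was -0.29 without control replicate 1 and 0.00096 without control replicate 2. This is the only one of the 9 genes for which the 2020 pair and every comparison of 2021 libraries pointed in opposite directions.

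CFLAR, CASP10 and CASP8 are neighbours on chromosome 2, in that order between 201116164 and 201287711. CASP8 was at 34, 28.1 and 25.7 CPM in the controls and 31.3, 26.7 and 22.6 CPM in the resistant replicates, a log2 difference of -0.12 ± 0.11. CFLAR, the inhibitor, was at 49.4, 35.9 and 38.8 CPM and at 44.6, 35.4 and 34.5 CPM, a log2 difference of -0.11 ± 0.09. Both overlapped between the groups. CASP10 was at 23.1, 24.9 and 17.5 CPM in the controls and 17, 16.2 and 16.8 CPM in the resistant replicates, so that every resistant library was below every control. Its fitted log2 difference was -0.39 ± 0.14, or 1.31-fold lower, with -0.44 in 2020 and -0.34 in 2021. It was -0.24 without control replicate 2 and -0.54 without control replicate 3.

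The ratio of CFLAR to CASP8 per coding kilobase, which does not depend on library scaling, was 1.35, 1.18 and 1.41 in control and 1.32, 1.23 and 1.42 in resistant replicates 1 to 3. The means of 1.31 ± 0.115 and 1.32 ± 0.0934 differed by less than the spread between replicates. With both caspases in the denominator the ratio was 0.752 ± 0.111 in control and 0.809 ± 0.0458 in resistant libraries. These means differed by less than the control SD but by more than the resistant SD, and the groups overlapped. The ratio of CASP10 to CASP8 was 0.686, 0.892 and 0.688 in control and 0.549, 0.61 and 0.749 in resistant replicates 1 to 3, and these overlapped.

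Per coding kilobase, the order of the levels in control libraries was TNFSF10 (55.4 ± 34.6 CPM per kb), FADD (30.1 ± 9.53), TNFRSF10B (22.1 ± 6.8), CFLAR (21.5 ± 3.69), CASP8 (16.4 ± 2.41), CASP10 (12.3 ± 2.18), TNFRSF10A (10.2 ± 0.785), FAS (3.56 ± 3.33), TNFRSF10D (1.8 ± 0.558) and TNFRSF10C (0.048 ± 0.0219). Neighbours in this order overlapped over the 3 libraries except CASP8 with CASP10, TNFRSF10A with FAS, and TNFRSF10D with TNFRSF10C. In resistant libraries FAS averaged 12.2 ± 8.83 CPM per kb, which put it in place 6 by the mean, between CASP8 (15 ± 2.41) and TNFRSF10A (9.64 ± 1.19). That place came from the 2020 library, where FAS was at 22.4 CPM per kb. In both 2021 resistant libraries FAS, at 7.3 and 6.84 CPM per kb, was below TNFRSF10A, at 9.49 and 8.53, and CASP10, at 9.13 and 9.49. It so stood in place 8 there, as in the mean of the controls. In control replicate 2 FAS, at 1.66 CPM per kb, was also below TNFRSF10D, at 2.39. TNFSF10 stayed first at 52.5 ± 33.5 CPM per kb, followed by TNFRSF10B at 28.6 ± 8.78 and FADD at 26.6 ± 3.72.

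**Figure D2:**
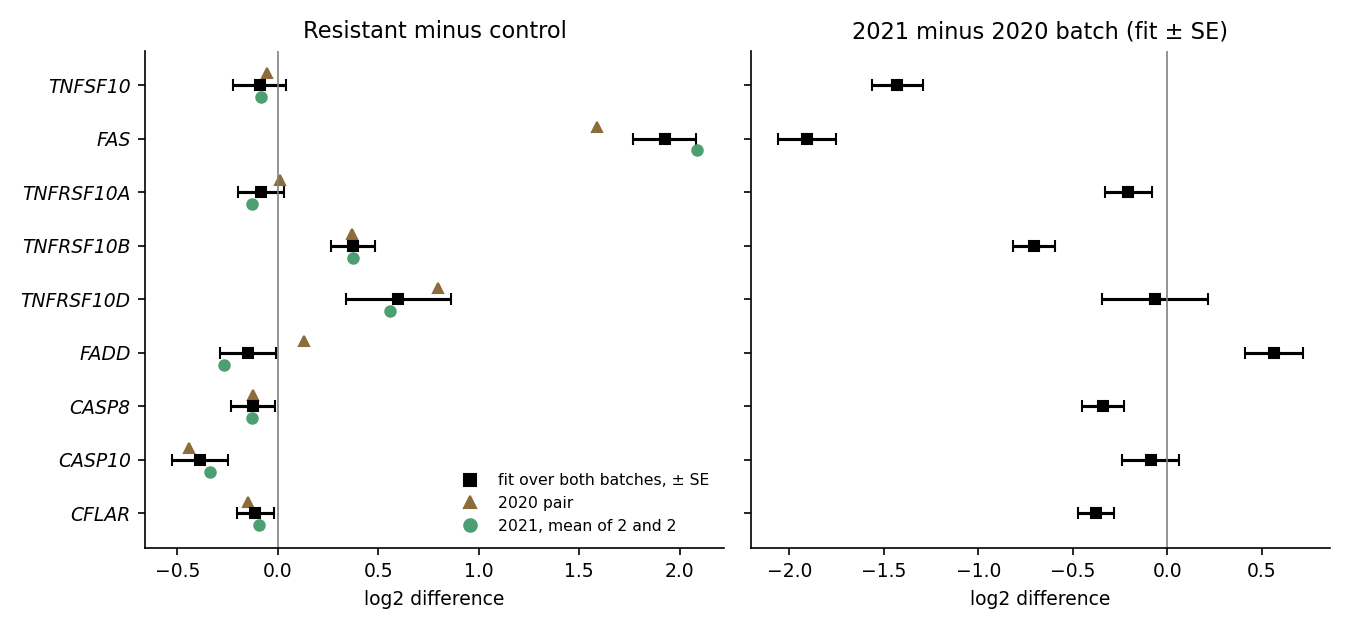
Left, log2 difference between resistant and control libraries for the 9 testable genes (squares, fit with SE), with the 2020 pair (triangles) and the 2021 means (circles). Right, log2 difference between the 2021 and 2020 batches from the same fit. FAS is at 1.92 on the left, and FAS and TNFSF10 are at -1.91 and -1.43 on the right.

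The batch difference, which was not used to choose the genes, was tested in the same fit. Of the 9 genes 5 differed between the 2020 and 2021 libraries, 4 lower and 1 higher in 2021, beside 22.9% of all tested genes (edgeR, adjusted p under 0.05). FAS fell from a mean of 15.2 CPM in 2020 to 4.46 CPM in 2021 (log2 difference -1.91 ± 0.15 SE, edgeR adjusted p = 0.000256), a size close to its difference between the lines. TNFSF10 fell from 78.3 to 29.1 CPM (-1.43 ± 0.14, edgeR adjusted p = 0.000597). TNFRSF10B fell from 45.1 to 27.7 CPM (-0.71 ± 0.11, edgeR adjusted p = 0.006), and CFLAR from 47 to 36.2 CPM (-0.38 ± 0.1, edgeR adjusted p = 0.0265). FADD rose from 13.3 to 19.9 CPM (0.57 ± 0.15, edgeR adjusted p = 0.0317). CASP8 had a log2 difference of -0.34 and missed the threshold (edgeR adjusted p = 0.0594). It passed without control replicate 2 (0.0381), with DESeq2 (0.0355) and with no filter. TNFRSF10A, TNFRSF10D and CASP10 had log2 differences between -0.2 and -0.06 and did not pass.

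FAS and TNFSF10 kept their batch call whichever library was left out. For TNFRSF10B the call needed both 2020 libraries (adjusted p = 0.0904 without the control and 0.0903 without the resistant one). FADD lost it when control replicate 1 or one of the resistant libraries was dropped (adjusted p up to 0.378), and CFLAR without the same libraries (up to 0.275). What the batch dates stand for is not stated in the labels.

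Whether the difference between the lines itself differed between the batches was tested with a product term. No gene of the 13950 was called by edgeR, where 187 had an unadjusted p under 0.05, and DESeq2 called 2, none of them among the 9. The log2 term was 0.51 ± 0.32 for FAS and -0.41 ± 0.3 for FADD, with unadjusted p of 0.141 and 0.206 and an edgeR adjusted p of 0.9999 each. That fit leaves 2 residual degrees of freedom and holds 1 library of each line in 2020, so it does not show that the differences were alike.

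The genes closest to FAS were those with the smallest root mean square difference from it in centred log2 CPM over the 6 libraries, among 12206 genes averaging 1 CPM or more. They were IFI44, an interferon-induced gene (0.35), XAF1, which binds the caspase inhibitor XIAP (0.36), CASP1, the inflammatory caspase (0.4), CARD16, a CARD-only protein next to CASP1 (0.41), and BMPR1B, a receptor of bone morphogenetic proteins (0.42). CASP1 was at 52, 13.1 and 15.3 CPM in the controls and 84.3, 46.5 and 49.4 CPM in the resistant replicates, and CARD16 at 9.17, 2.29 and 2.45 CPM and 14.4, 6.66 and 7.32 CPM. In all 5 genes, as in FAS, the resistant libraries were above the control libraries of their batch and the 2020 library was the highest of its line. CARD16 is close to CASP1 in sequence, and their reads may be shared. These genes were chosen for this pattern, so it is a description over 6 libraries that share lines and batches.

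**Figure D3:**
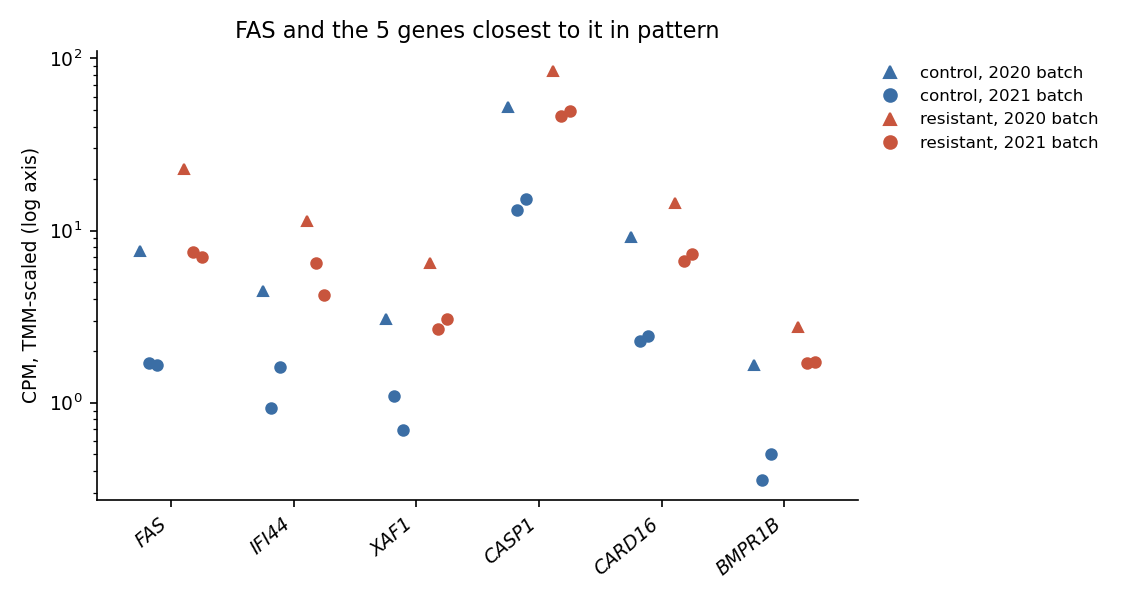
CPM, scaled by TMM and on a log axis, of FAS and the 5 genes closest to it in pattern, with control in blue, resistant in red, triangles for 2020 and circles for 2021. Each gene is higher in resistant libraries within a batch, and its 2020 library is the highest of each line, as for CASP1 at 52 CPM (control) and 84.3 CPM (resistant).

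Of the other genes of the pathway, 83 in 9 lists, 69 were tested and 8 passed between the lines, 5 higher and 3 lower. The share of 11.6% was near that of all tested genes, 11.7%, and the median log2 difference was -0.04.

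Other death ligands were low or without counts. FASLG, TNF, LTA and LTB had no count in any library, which by counting error alone allows up to 0.0312 to 0.0808 CPM. Reads lost in capture or mapping are not covered by that limit. Of the 2 tested of 7 ligands none passed by edgeR or DESeq2 (1 at an unadjusted p under 0.05). The most abundant, TNFSF15, averaged 1.48 ± 0.615 CPM (control) and 2.68 ± 0.69 CPM (resistant) (SD, n = 3 per group, edgeR adjusted p = 0.142).

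Among 5 tested of 6 other receptors with a death domain, 1 fell. EDAR, the ectodysplasin receptor, fell from 0.82, 1.97 and 1.96 CPM in control to 0.108, 1.02 and 0.883 CPM in resistant replicates 1 to 3 (log2 difference -1.38 ± 0.34 SE, edgeR adjusted p = 0.0337), with overlapping groups. Its call ended with the replicate block (0.0594) and without every library except control replicate 3 (adjusted p up to 0.136). TNFRSF25, the death receptor DR3, was above in all resistant libraries, at 3.47 to 5.48 CPM against 1.98 to 2.74 CPM. It missed the threshold with edgeR (adjusted p = 0.0502) but passed with DESeq2, with no filter and without control replicate 3. It is named here after its values were seen. Of 9 decoy and other receptors 4 were tested and none passed by edgeR or DESeq2 (1 at an unadjusted p under 0.05). The most abundant of them, LTBR, the lymphotoxin-beta receptor, was at 60.3 ± 11 and 70.6 ± 9.65 CPM (edgeR adjusted p = 0.139). TNFRSF11B, a soluble decoy that also binds TRAIL, did not pass the filter on low counts, at 2, 3 and 5 counts in control and 4, 28 and 33 counts in resistant replicates 1 to 3, and is named after its values were seen. It was tested and called higher with no filter, in the 2021 libraries alone, and without control replicate 1, control replicate 3 or resistant replicate 1.

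Of 15 genes that modulate the signalling complex 2 rose and 1 fell. CAV1, the membrane scaffold caveolin-1, rose from 5.64, 12.3 and 6.79 CPM to 14.9, 15.8 and 17.2 CPM in replicates 1 to 3 (log2 difference 0.98 ± 0.23 SE, edgeR adjusted p = 0.0324), without overlap. TNFAIP3, the ubiquitin-editing inhibitor A20, rose 1.83-fold (0.87 ± 0.16, edgeR adjusted p = 0.0117), and it too was high in 2020, at 64.7 and 106 CPM in the control and resistant library against 5.58 to 14.9 CPM in 2021. RIPK1, the kinase that passes signals of TNF and TRAIL receptors to NF-kappaB or necroptosis, fell 1.45-fold from 53.9 ± 3.49 to 37.1 ± 2.42 CPM (-0.54 ± 0.1, edgeR adjusted p = 0.011), without overlap. FAIM2, an inhibitor of FAS signalling known from neurons and named after its values were seen, was at 1.91, 5.15 and 1.19 CPM in the controls and 0.512, 0.585 and 0.862 CPM in the resistant replicates. It missed the threshold with edgeR (adjusted p = 0.0507) and passed with DESeq2 and without control replicate 3. For CAV1 the call was lost when control replicate 1 or one of the resistant libraries was left out (adjusted p up to 0.142), and that of RIPK1 without resistant replicate 2 or 3 (0.0695 and 0.0646).

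Among 11 genes of the mitochondrial route and the caspases downstream only BAK1, which permeabilises the outer mitochondrial membrane, passed. It fell 1.92-fold from 18.5, 29.3 and 24.3 CPM to 10.9, 13.7 and 12.6 CPM in replicates 1 to 3 (-0.94 ± 0.12 SE, edgeR adjusted p = 0.00282), without overlap. BID, the link from caspase-8 to mitochondria, and the caspase CASP6 had log2 differences of 0.08 and 0.02 and did not pass. RIPK1 and BAK1 both lie on chromosome 6, starting at 3063967 and 33572552. Of 355 tested genes that start before position 60000000 of that chromosome 207 fell and 3 rose, beside 5.48% and 6.23% of all tested genes. The median log2 difference of the 355 was -0.62, so RIPK1 was near and BAK1 below that median. The other tested list genes of this stretch did not pass. DAXX had a log2 difference of -0.82 (edgeR adjusted p = 0.131) and TNFRSF21 of 0.16 (edgeR adjusted p = 0.494). The stretch was picked around RIPK1 and BAK1 with earlier results of these data known.

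Of 6 tested inhibitors of apoptosis and their partners 2 rose. XAF1, also among the genes closest to FAS, rose 2.77-fold from 1.62 ± 1.28 to 4.06 ± 2.07 CPM (1.47 ± 0.25 SE, n = 3 per group, edgeR adjusted p = 0.00757), and lost its call without resistant replicate 3 (0.0526). XAF1 is known as an antagonist of XIAP, so it acts against the function in the name of its list. BIRC3, the ubiquitin ligase cIAP2, rose 2.09-fold from 16.1, 4.45 and 4.69 CPM to 19.3, 13.1 and 12.3 CPM in replicates 1 to 3 (1.06 ± 0.24, edgeR adjusted p = 0.026). On the log2 scale BIRC3 differed by 0.26 within 2020 and by 1.47 within 2021. That call ended with the replicate block (adjusted p = 0.0628) and on dropping any 1 of the 2021 libraries (up to 0.118). BIRC5, or survivin, named after its values were seen, was below in all resistant libraries (log2 difference -0.44 ± 0.14 SE) and did not pass with edgeR (adjusted p = 0.0903), but did with DESeq2, with no filter and without control replicate 3. XIAP itself was at a log2 difference of -0.19 and did not pass.

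RIPK3 and ZBP1 of the necroptosis route had no count, and neither MLKL nor CYLD passed by edgeR or DESeq2 (0 at an unadjusted p under 0.05). CYLD, a deubiquitinase, was the more abundant at 82.6 ± 37 and 77.7 ± 36.9 CPM (SD, n = 3 per group, edgeR adjusted p = 0.558). Of 9 genes of receptor glycosylation and trafficking none passed by edgeR with all libraries, and 3 had an unadjusted p under 0.05. GALNT14 was called with DESeq2, with limma voom and, by edgeR, without control replicate 3. GALNT14, which starts O-linked glycosylation, was at 28.1, 19.1 and 9.03 CPM in the controls and 42.1, 33.1 and 34.8 CPM in the resistant replicates (edgeR adjusted p = 0.0744). The most abundant of this list, SRP72 of the signal recognition particle, was at 216 ± 23.4 and 208 ± 36.8 CPM (edgeR adjusted p = 0.746).

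Among 15 transcription factors known to act on FAS or TRAIL receptor genes, 1 passed. TP63, a transcription factor of basal epithelial cells, rose 3.87-fold from 5.29, 4.74 and 5.72 CPM in control to 26.3, 24.3 and 11.7 CPM in resistant replicates 1 to 3 (1.95 ± 0.28 SE, edgeR adjusted p = 0.00667), without overlap. Its call ended without control replicate 2 or 3 (0.0509 and 0.0715). Its log2 difference between batches was -0.31 (edgeR adjusted p = 0.471).

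**Figure D4:**
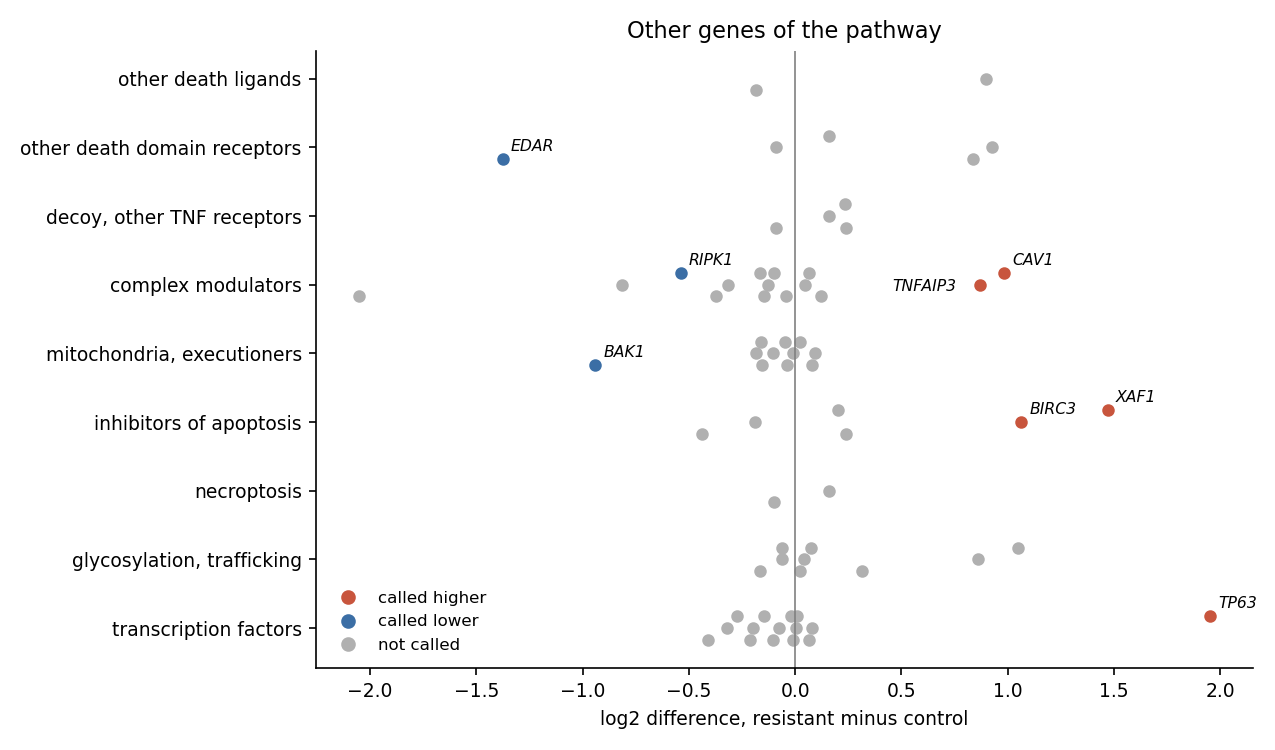
Log2 difference between resistant and control libraries of the 69 tested genes of the other pathway lists, 1 point per gene, with the 5 called higher in red and the 3 called lower in blue. Most points lie near 0, around the median of -0.04.

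The 5 tested genes on each side of each gene or cluster were then set beside it. Of all tested genes 6.23% were called higher and 5.48% lower, and whether neighbours exceeded these shares was not tested. Before FAS on chromosome 10, 3 of 5 neighbours rose, and after it none of 5 passed by edgeR. STAMBPL1, a deubiquitinase, rose 1.6-fold from 13.3 ± 1.74 to 21.7 ± 6.38 CPM (SD, n = 3 per group, edgeR adjusted p = 0.0109), and ANKRD22, an ankyrin repeat protein, rose 2.67-fold from 1.31 ± 0.668 to 3.29 ± 0.674 CPM (edgeR adjusted p = 0.00934). The antisense ACTA2-AS1 rose from 0.106 ± 0.0585 to 0.504 ± 0.112 CPM (edgeR adjusted p = 0.00944). Its control levels of 0.174, 0.0715 and 0.0738 CPM were not far above the 3-count floors of those libraries (0.0745, 0.0536 and 0.0443 CPM). ACTA2, smooth muscle actin, whose span overlaps the start of FAS, was at 0.294 ± 0.143 and 0.769 ± 0.218 CPM (edgeR adjusted p = 0.0769). ACTA2 had 11 to 54 counts per library against 95 to 850 for FAS, and FAS-AS1, within FAS, had none. Whether strand was used in counting is not given in the sources used here, so reads of overlapping genes cannot be told apart. The nearest gene after FAS, LIPA, the lysosomal acid lipase, was at 85.1 ± 11.4 and 82.4 ± 19.6 CPM (edgeR adjusted p = 0.72).

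The call of STAMBPL1 needed both 2020 libraries and resistant replicate 3 (adjusted p up to 0.0847 without one of them). ANKRD22 and ACTA2-AS1 lost theirs without resistant replicate 3 (0.0626 and 0.0579), and ACTA2 passed without control replicate 2 (0.0235).

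Around TNFSF10, by contrast with the gene itself, the 3 nearest tested genes on the side of lower coordinates rose: TNIK, a kinase, 4.35-fold (edgeR adjusted p = 0.00408), PLD1, a phospholipase D, 2.46-fold (0.00403), and FNDC3B 1.34-fold (0.0398). On the other side none of 5 passed, and NCEH1 was nearest, with a log2 difference of -0.04. FNDC3B lost its call with the replicate block (adjusted p = 0.0633) and without each library in turn (up to 0.165). Around FADD 3 of 10 neighbours fell, the chloride channel ANO1 by 1.64-fold (edgeR adjusted p = 0.0207), MYEOV by 1.61-fold (0.00638) and DHCR7, an enzyme of cholesterol synthesis, by 1.51-fold (0.0319), while the nearest gene after FADD, PPFIA1, had a log2 difference of -0.000406. ANO1 lost its call without resistant replicate 2 or 3 (up to 0.111), MYEOV without resistant replicate 3 (0.0526), and DHCR7 without any resistant replicate (up to 0.139).

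Of 10 neighbours of the TRAIL receptor cluster only SLC25A37, a mitochondrial iron importer, passed, rising 1.44-fold (edgeR adjusted p = 0.0344). The nearest genes, RHOBTB2, whose end overlaps that of TNFRSF10B, and CHMP7, had log2 differences of 0.47 and -0.14 and did not pass, although RHOBTB2 did without control replicate 2 (0.0156). Around CFLAR, CASP10 and CASP8 only STRADB, a pseudokinase, passed, falling 1.37-fold (edgeR adjusted p = 0.0336), and the nearest genes NDUFB3 and FLACC1 had log2 differences of 0.09 and 0.57. Both calls were lost on dropping control replicate 1 or one of the resistant libraries, with adjusted p up to 0.146 for SLC25A37 and 0.174 for STRADB.

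**Figure D5:**
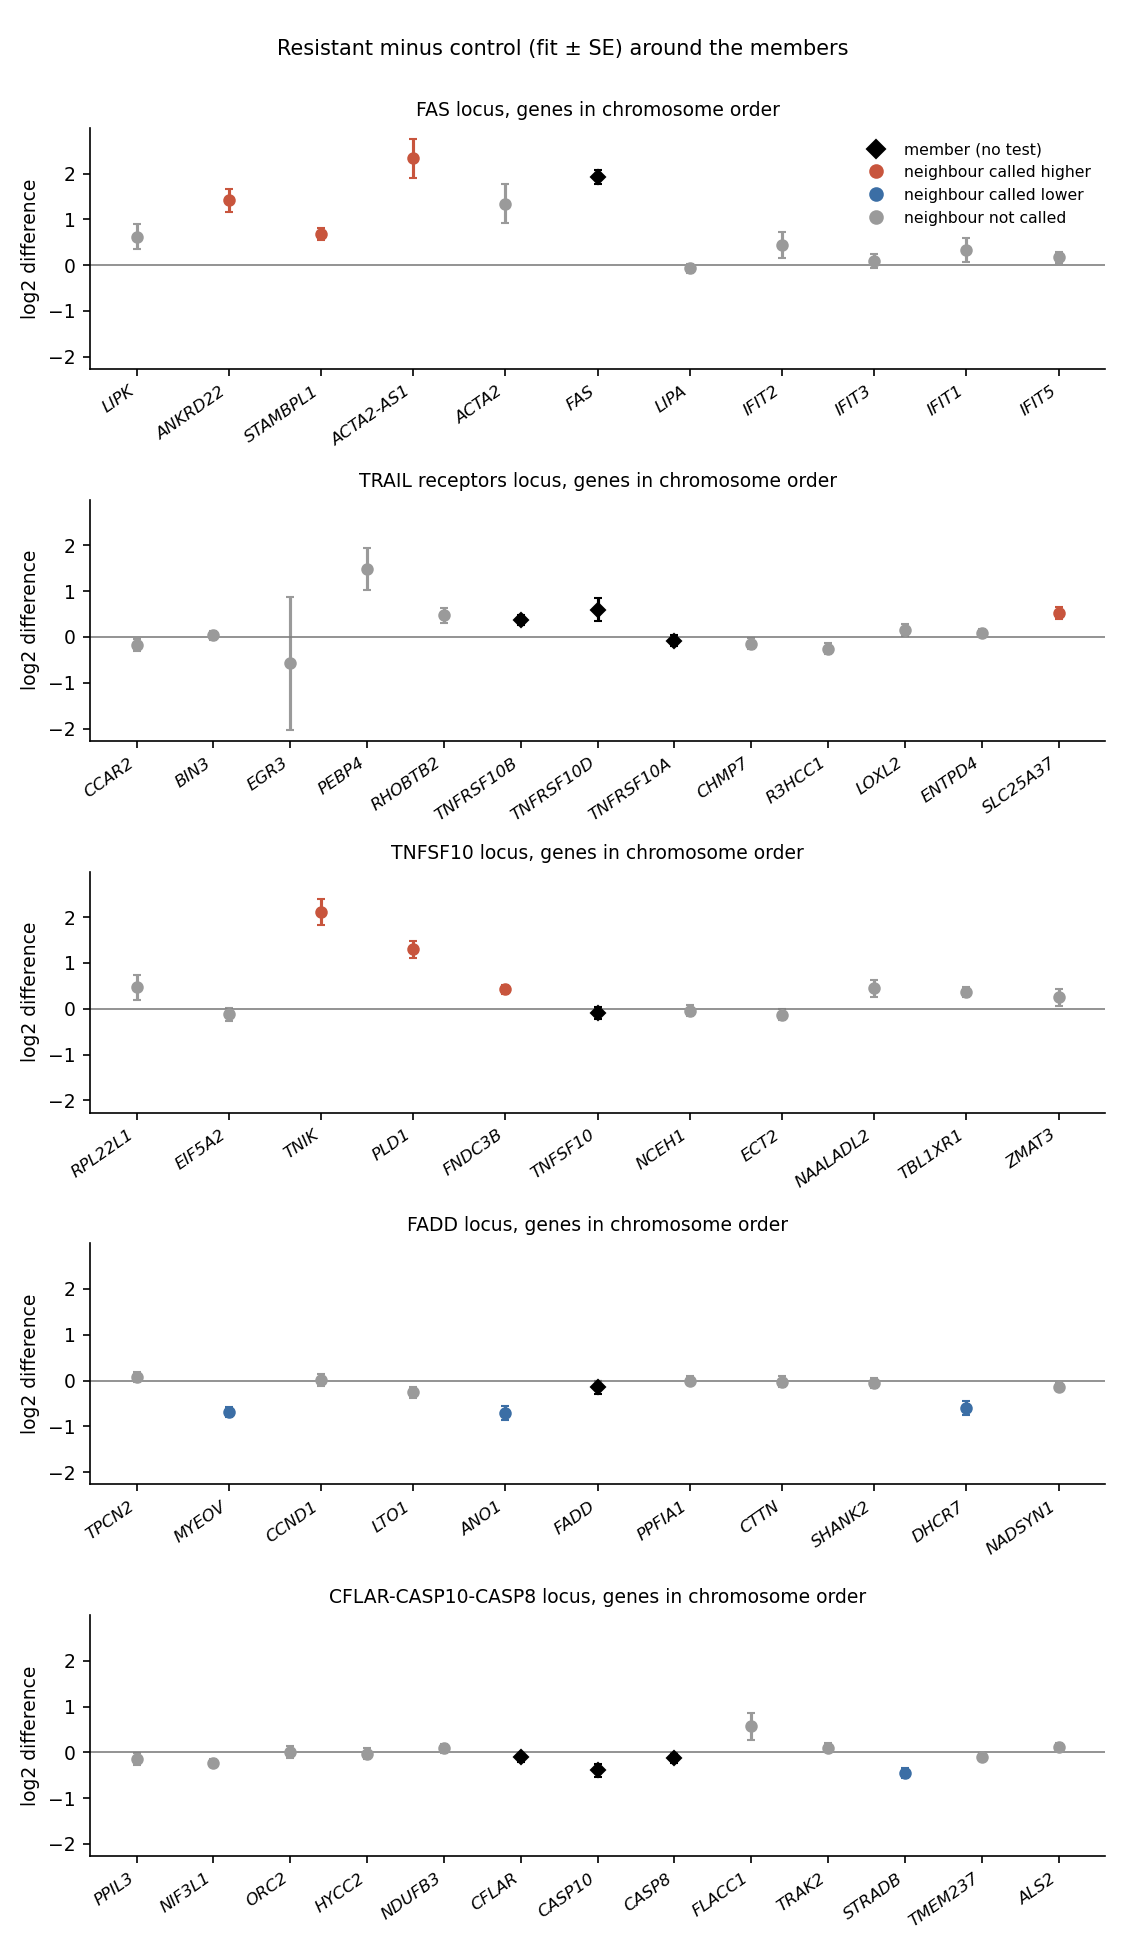
Log2 difference between resistant and control libraries (fit with SE) of the described genes (black diamonds) and their 5 tested neighbours on each side, in chromosome order, with called neighbours in red (higher) or blue (lower). Before FAS, ANKRD22, STAMBPL1 and ACTA2-AS1 are called higher, and TNFRSF10C, too low to test, is not drawn.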

How the data were processed

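RNA-seq gene counts of 3 control and 3 resistant libraries were used. The deposited values are whole-number counts per Entrez gene, not normalised by the authors, with columns assigned to samples through the names in the labels. Per the labels' protocols, 100 ng of RNA per sample entered KAPA RNA HyperPrep and was captured with Twist exome probes. Trimmomatic 0.38, STAR 2.7.8a and featureCounts of Subread with GRCh38 are named, per the submitters' processing notes. For strand, multiply mapped reads and annotation release the settings were not given in the sources used here, so overlapping and near-identical genes can exchange reads.

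Of 28395 genes, 27745 were named from RefSeq (GRCh38.p14). filterByExpr by group kept 13950. Counts were scaled by TMM and tested with edgeR 4.0.16 (robust quasi-likelihood) with batch and line as terms, which leaves 3 residual degrees of freedom. Log2 CPM within batches used a prior count of 2. Coding length is the merged coding sequence in GENCODE 29. Alternatives were run with DESeq2 1.42.0, limma voom (limma 3.58.1), other scalings, filters and designs. On simulated counts the test missed part of the smaller changes, and the share of its calls on unchanged genes was above that set by the threshold.

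The genes and lists were chosen with earlier results of these data known. Besides the 10 genes, up to 2 risen and 2 fallen genes of each list at a mean of at least 1 CPM were named, or its most abundant member, with the 5 genes closest to FAS and, of 5 neighbours on each side, the nearest and those called. Results for some genes of the lists are not reported here.

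Deviations from the group mean correlated at 0.729, 0.143 and 0.155 between control and resistant libraries of the same number, each above 0.1, so the number was taken as a pairing and used as a block in an alternative. The first pair is the 2020 batch, and the crossed numbers of 2021 correlated more strongly, at 0.57 and 0.477. The pairing within 2021 is therefore not established, and calls lost with the block depend on that choice of pairs. Libraries of 1 group were not duplicates, with a chi-square of 70 to 215 per degree of freedom. Nothing in the labels states that replicates came from separate cultures, so p-values reflect only how these libraries vary, possibly for technical reasons. Intervals and floors cover counting error only, as reads carry no molecular identifiers.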

Additional observations from a re-analysis of the deposited data

How the results depend on the processing

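Over 15 settings the log2 difference between the lines ranged from 1.78 to 2.11 for FAS, 0.3 to 0.43 for TNFRSF10B, 0.39 to 0.92 for TNFRSF10D, -0.54 to -0.24 for CASP10, -0.14 to -0.03 for TNFRSF10A, -0.2 to -0.07 for CASP8 and -0.15 to -0.07 for CFLAR. The sign changed for TNFSF10 (-0.22 to 0.06) and FADD (-0.29 to 0.00096). Left unfiltered, 3 of the 9 genes were called (FAS, TNFRSF10B and CASP10), beside 2286 of all 18878 genes then tested. In that setting 5 other pathway genes fell, and 17 genes had a difference between the lines that differed between batches. DESeq2 called 2 of the 9 (FAS and TNFRSF10B), beside 2204 of 13950 genes. With it 5 other pathway genes fell, and 2 genes had a difference between the lines that differed between batches. As the list was chosen by the difference of FAS between the lines, calls among the 9 in any setting are no test of them. Without the batch term 362 genes differed between the lines, 1 pathway gene rose and 0 fell (edgeR, 4 lower at an unadjusted p under 0.05), and 0 of the 9 genes were called (2 at an unadjusted p under 0.05), whereas the 2021 libraries alone gave 1012 genes. Leaving out each library in turn gave 617 to 1985 genes between the lines, 262 to 4357 between batches, 2 to 6 pathway genes higher, 1 to 6 lower and 1 to 3 of the 9 genes called. The lowest count between the lines came without resistant replicate 3, followed by 851 and 1001 without resistant replicates 2 and 1 and 1064 without control replicate 1. The lowest counts between batches, 262 and 266, came without resistant and control replicate 1, and 1719 and 1186 genes were called without resistant replicates 2 and 3. With the replicate block in place of the batch 1303 genes were called, FAS among them, and of the 8 called pathway genes 6 remained, EDAR and BIRC3 being lost. It ended the call of FNDC3B and of no other named neighbour. Except where leaving out 1 library is named with a result, the cause of these changes was not tested. With 3 libraries per line, and 1 per line in 2020, small differences such as those of CASP8 or CFLAR could not be resolved.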
